A study of Mus musculus with 2 samples.

Results

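Transcripts of 41 genes of the actin cytoskeleton and its regulators were measured in mouse regulatory T cells. The genes form a list of named genes that was chosen with earlier results of these data known. They were found by identifier among the 55536 GENCODE M21 genes of the deposited tables. PolyA plus RNA-seq was done on primary cells from 1 male mouse, an adult aged 4 months, of the strain Foxp3CreERT2 x Rosa26YFP. In such animals an inducible Cre recombinase is expressed from the Foxp3 locus and a yellow fluorescent reporter stands at the Rosa26 locus. The labels trace the cells to a hematopoietic cell of the bone marrow, and name neither a treatment nor a sort or gate. Both libraries are technical replicates of the same biological sample, so they form 1 group, there is no control group, and every SD below (n = 2) is technical.

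Actin monomers assemble into polar filaments that are nucleated, branched, capped, severed and cross-linked by dedicated proteins. Monomer-binding proteins hold the unpolymerised pool, the Arp2/3 complex starts side branches, and small GTPases such as Rac and Cdc42 switch its activators on at the membrane. In T cells this machinery shapes migration, the contact with an antigen-presenting cell and signalling at that contact, and several of its genes cause immunodeficiency in humans when they are lost.

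The libraries held 15821875 and 16153671 estimated counts on annotated genes. Intervals and limits below cover counting error only, and where 0 counts are given, the depth allows a level of up to 3 counts, which is 0.190 CPM in library 1 and 0.186 CPM in library 2. All 6 regulatory T cell markers were expressed in both libraries, with Foxp3 at 43.2 and 36.2 TPM (a level corrected for transcript length and for depth). All 5 general T cell markers stood at or above 199 TPM in each library. The 5 megakaryocyte and platelet markers summed to 0.440 and 0.270 TPM, with Pf4, Ppbp, Gp9 and Gp1bb at 0 counts. The 8 myeloid markers summed to 6.44 and 8.90 TPM, and the 5 B cell markers to 35.1 and 35.3 TPM, of which Cd79b alone gave 33.2 and 33.3. The 7 stroma, epithelium and endothelium markers summed to 5.03 and 3.17 TPM, with Dcn at 0 counts. The 5 red cell markers summed to 12.2 and 9.53 TPM, with Slc4a1 at 0, and the CD8 markers Cd8a and Cd8b1 to 13.0 and 16.2. In a bulk sample, fewer cells that express a gene and less RNA per cell cannot be told apart.

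All 41 genes reached 1 TPM in both libraries and are called expressed, against 24.3% of all annotated genes. Of them, 30 stood at 100 TPM or more in both libraries, where the share was 2.36% of all genes and 11.3% of expressed protein-coding genes. The median of their mean levels was 365 TPM, beside 13.5 TPM over the 13471 expressed genes and 18.5 TPM over the 10251 expressed protein-coding genes. The lowest was Was, at 14.6 and 16.4 TPM, and the highest was Actb, which ranked 1 among all genes. Together they took 5.78% of the estimated counts of library 1 (95% exact Clopper-Pearson interval 5.77 to 5.80) and 5.55% of library 2 (5.54 to 5.56). Actb alone took 2.50% (2.49 to 2.51) and 2.22% (2.21 to 2.22), and the other 40 genes 3.28% (3.28 to 3.29) and 3.33% (3.32 to 3.34). When the genes were ordered by mean level, 13 of the 40 neighbouring pairs overlapped between libraries, among them Actr3, Capg, Capza1, Capzb and Arpc5, so their order is not resolved.

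**Figure D1:**
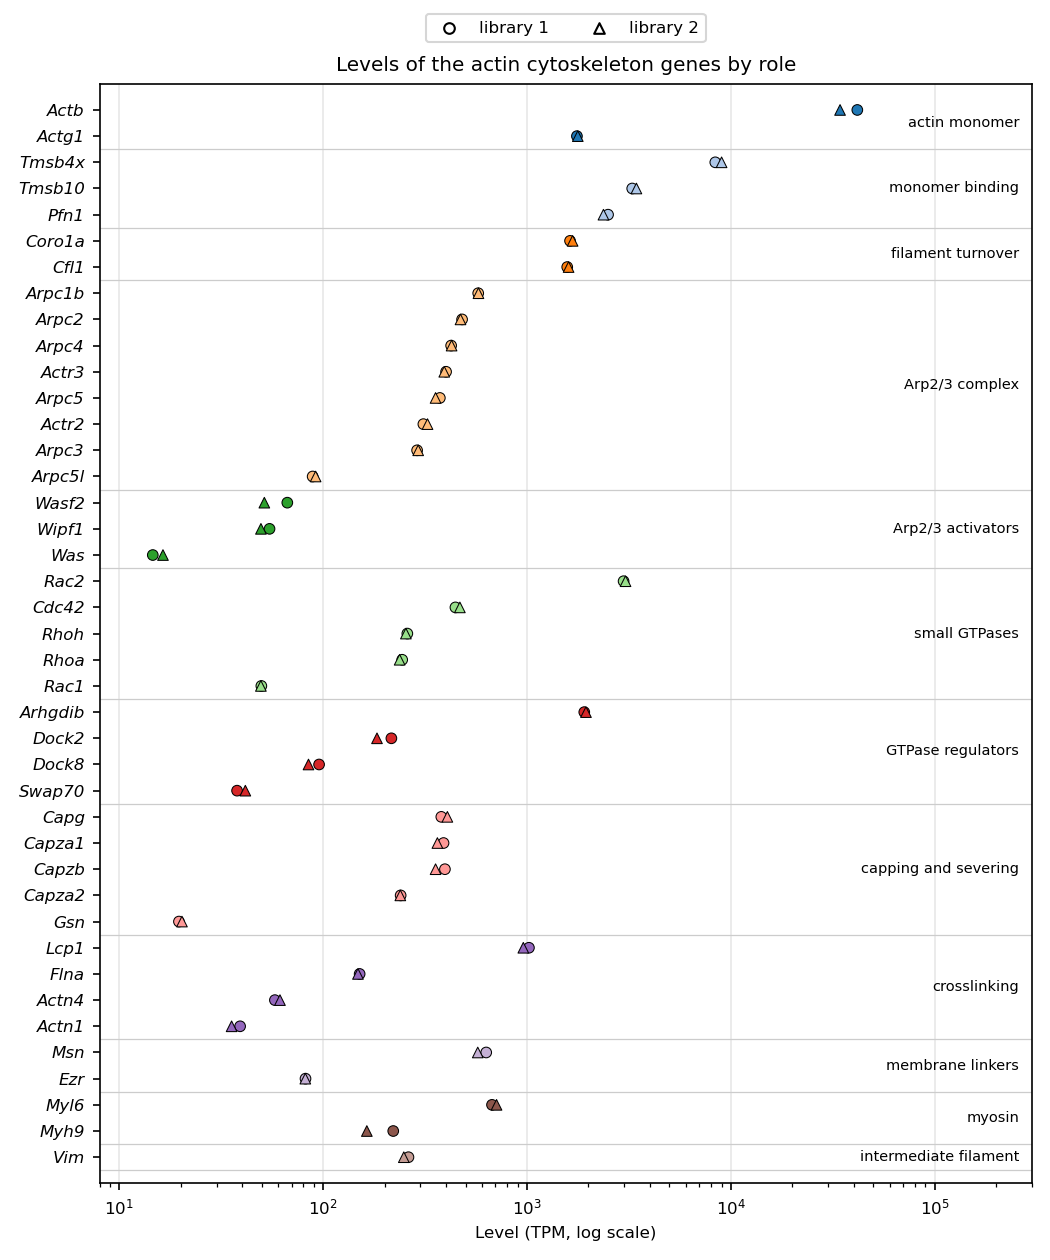
Level of each gene in TPM on a log axis, grouped by role, with a circle for library 1 and a triangle for library 2. The libraries lie close together for most genes, and the levels run from Was (14.6 and 16.4) to Actb (41711 and 34322).

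Both cytoplasmic actins were present, and beta-actin dominated. Actb, the beta-actin gene (ENSMUSG00000029580.14, mm10 chr5:142903115-142906754, minus strand), had 41711 and 34322 TPM. Actg1, the gamma-actin gene, had 1757 and 1775 TPM. Among the muscle actins only Actg2, an enteric smooth muscle actin, passed 1 TPM, with 19.1 and 16.2. Acta1, Acta2 and Actc1, the skeletal, vascular smooth muscle and cardiac actins, all stayed under 1 TPM. The proteins of Actb and Actg1 are nearly the same, and the genes are told apart by their bases. Over the 1128 bases of each coding sequence, 1000 were identical, and the start is shown here because its differences lie close together. Capitals mark the bases that differ, from the minus strand of mm10 at chr5:142905627-142905686 for Actb and chr11:120348032-120348091 for Actg1 (GENCODE M21).
Actb-201: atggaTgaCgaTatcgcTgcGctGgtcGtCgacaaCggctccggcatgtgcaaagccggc
Actg1-202: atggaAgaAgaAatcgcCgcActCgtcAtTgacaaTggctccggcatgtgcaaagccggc
These 60 bases hold 9 differences, and of the 1079 stretches of 50 bases along the coding sequence, 30 had none. Actg1 shares more with pseudogenes: 56.7% of the 50-base windows of its main transcript also occur in another gene, 51.1% in Gm12715 alone, against 14.2% for Actb. This is a share of positions and not the share of the Actg1 level that is in doubt. The 22 genes that share windows with Actg1 held 398058 and 360680 estimated counts, of which Actb had 395491 and 357843. Actg1 itself had 41411 and 43636. The level of Actg1 is uncertain with respect to such copies, and how far was not tested.

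The height of the Actb level depended on a short transcript. The transcript table assigned 66.0% and 63.8% of the TPM of Actb to Actb-209, a processed transcript of 241 bases that lies wholly within exons of the coding transcript Actb-201 and outside its coding part. Actb-209 held only 16.6% and 15.3% of the estimated counts of the gene, and Actb-201 held 83.3% and 84.6%. Of the 192 windows of 50 bases in Actb-209, 48 occur in no other Actb transcript. With transcripts under 500 bases left out and TPM rescaled, Actb stood at 18856 and 16597. Counts per length of the longest protein-coding transcript, scaled to the same total as TPM, gave 22415 and 19292. Actb ranked 1 among all genes on each of these scales, and its lead over Actg1 was 21.5-fold in deposited TPM, 7.55-fold without short transcripts and 9.03-fold per length.

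The proteins that bind the actin monomer were all encoded by abundant transcripts. Tmsb4x, which encodes thymosin beta-4 and sequesters monomers, had 8387 and 9006 TPM and ranked 4 among all genes. Tmsb10, which encodes the related thymosin beta-10, had 3282 and 3441 TPM. Pfn1, the profilin that feeds monomers to growing filament ends, had 2498 and 2371 TPM. The libraries did not overlap between these 3 genes, and the order was the same on each of the 3 scales. Their relatives were far lower: Pfn2 had 7.81 and 6.46 TPM, Pfn3 had 0 counts in both libraries, and Tmsb15b2 had 51.1 and 58.3 TPM.

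The whole coding sequences of the 2 main thymosins are shown because they are short and their differences run along the whole length. Both lie on the minus strand of mm10, within chrX:167207501-167208036 for Tmsb4x and chr6:72957618-72958012 for Tmsb10 (GENCODE M21, introns removed). Capitals mark the bases that differ between them.
Tmsb4x-201: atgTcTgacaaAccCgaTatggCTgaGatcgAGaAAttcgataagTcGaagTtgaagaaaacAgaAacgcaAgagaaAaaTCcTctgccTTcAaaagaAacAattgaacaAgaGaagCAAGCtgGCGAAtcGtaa
Tmsb10-203: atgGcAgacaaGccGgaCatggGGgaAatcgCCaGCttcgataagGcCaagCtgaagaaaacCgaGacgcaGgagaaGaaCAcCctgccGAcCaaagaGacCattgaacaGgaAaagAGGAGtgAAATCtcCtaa
Of 135 bases, 95 (70.4%) were identical, the longest identical run was 10 bases, and no 50-base stretch was shared. The 0% of shared windows of Tmsb4x contrasts with 63.5% for Tmsb10, most of it with the gene Gm9844, at 50.9%. The Tmsb10 level is therefore uncertain with respect to such copies. The 5 genes that share windows with it held 868 and 822 estimated counts, beside 21217 and 23332 for Tmsb10. The leading Tmsb4x transcript was Tmsb4x-203, with 62.7% and 63.2% of TPM, ahead of Tmsb4x-201 with 36.8% and 36.4%. Pfn1-201 held 99.2% of the Pfn1 TPM in both libraries, and 0% of its windows were shared.

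Filament turnover was represented by one dominant gene in each family. Cfl1, the non-muscle cofilin that severs ageing filaments, had 1575 and 1599 TPM, beside 20.8 and 17.8 for the muscle cofilin Cfl2 and 15.1 and 19.6 for Dstn, the related destrin. Coro1a, a coronin of blood cells that binds filaments and Arp2/3, had 1626 and 1674 TPM. The next coronin, Coro1b, had 185 and 176 TPM, and Coro6 had 0 counts. Coro1a stood 9.14-fold above Coro1b on the mean level. Per length Cfl1 stood at 952 and 966, with a divisor of 2354 bases where its transcript with most counts has 1148. Cfl1-201 held 78.7% and 78.3% of the Cfl1 TPM and Coro1a-201 held 89.0% and 88.0% of that of Coro1a, both protein coding.

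The Arp2/3 complex contains 7 subunits, and ARP3, ARPC1 and ARPC5 each come from a choice of 2 genes. Arpc1b had 576 and 578 TPM against 62.1 and 71.3 for Arpc1a. Arpc5 had 374 and 356 TPM against 88.8 and 91.9 for Arpc5l. Actr3 had 401 and 393 TPM, while its relative Actr3b had 1.36 and 0.610. Arpc1b is the form whose loss causes an immunodeficiency in humans. It led Arpc1a by 8.65-fold, by 9.38-fold without transcripts under 500 bases and by 3.78-fold per length. Actr2 had 310 and 325 TPM, Arpc2 480 and 472, Arpc3 289 and 293, and Arpc4 425 and 427. With alternative genes summed, the subunits stayed within a 2.21-fold range, from ARPC3 at 291 ± 2.49 TPM to ARPC1 at 644 ± 7.59 (SD, n = 2). Without transcripts under 500 bases the range was 2.10-fold, with the same ends. On counts per length the range was 2.22-fold, but its ends were ARPC2 and ARPC4. The divisor there was 3105 bases for Arpc1b and 2270 for Arpc4, whose transcripts with most counts have 1394 and 1323. The ends of the order therefore changed only per length, and the narrow spread held on each scale. Shared windows reached 49.8% for Actr3, most with the gene Gm8822, 23.9% for Arpc1b and 18.4% for Arpc4, whose exons overlap Ttll3 over 283 bases.

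The 3 genes of the list grouped as activators of Arp2/3, Was, Wipf1 and Wasf2, were measured below the complex itself. Was, the WASP of blood cells that is lost in Wiskott-Aldrich syndrome, had 14.6 and 16.4 TPM. Its widely expressed relative Wasl had 11.2 in both libraries. Wipf1, which encodes the WASP-interacting protein that stabilises WASP, had 54.6 and 49.5 TPM. Wasf2, a WAVE protein that acts downstream of Rac, had 66.7 and 51.5 TPM. Wasf1 had 0.0600 and 0.0900 TPM and Wasf3 had 0 counts. In both libraries each of Was, Wipf1 and Wasf2 lay below each of the 8 Arp2/3 genes of the list. The lowest of these 8 was Arpc5l, at 88.8 and 91.9 TPM. Wasf2 owed much of its level to Wasf2-206, a protein-coding transcript of 483 bases with 58.3% and 47.3% of TPM but 11.7% and 9.11% of counts. Without transcripts under 500 bases Wasf2 stood at 33.3 and 26.7.

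**Figure D2:**
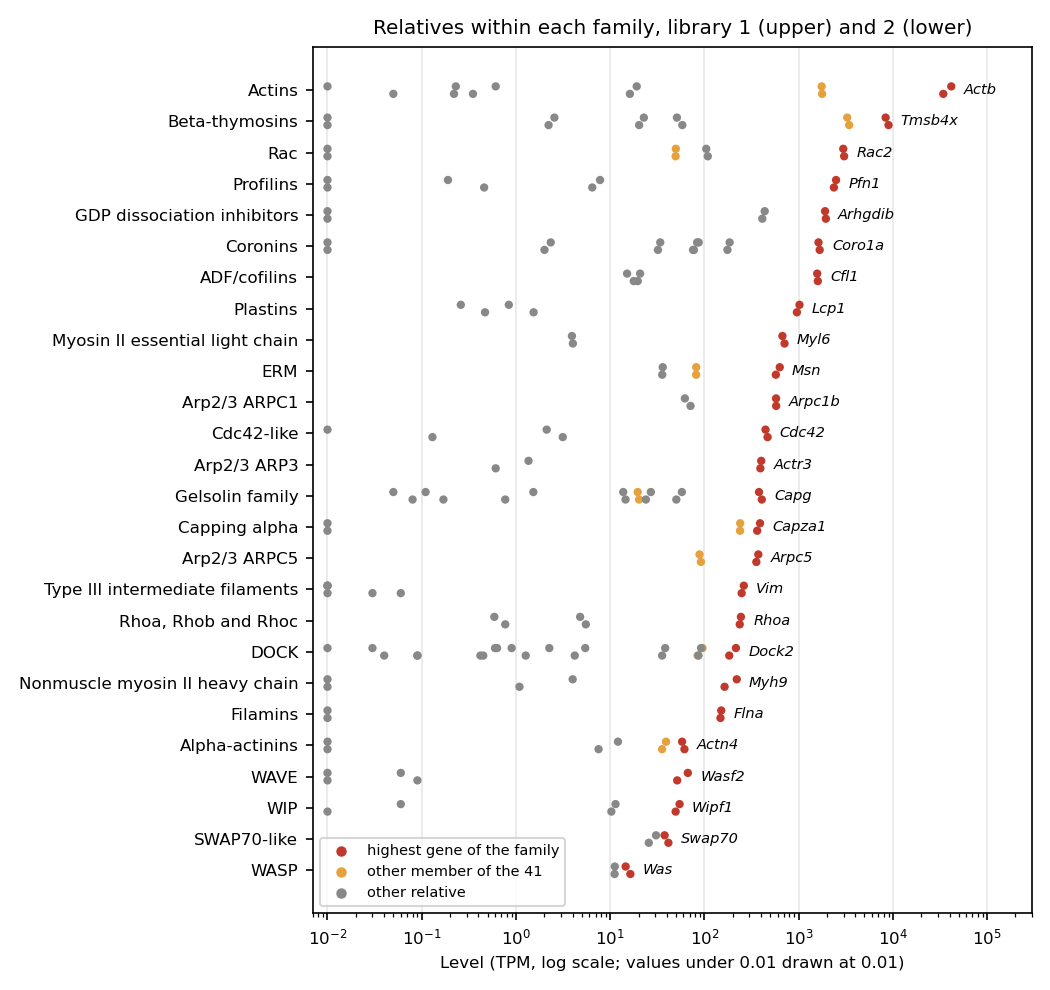
Level of the genes examined in 26 families, in TPM on a log axis, with library 1 drawn above library 2 in each row. The highest gene of each family is named, and in each case both of its libraries lie above both of the next gene.

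Among the small GTPases, Rac2 stood apart. Rac2, the blood cell Rac, had 2977 and 3043 TPM. Rac1, expressed in nearly all tissues, had 49.8 and 49.5 TPM, and Rac3 had 0 counts. Rhog, a GTPase related to the Racs, had 105 and 109 TPM. Rac2 was 28.2-fold above Rhog, its nearest relative by level, in deposited TPM, 6.91-fold without short transcripts and 9.21-fold per length. Rac2-203, a protein-coding transcript of 254 bases, held 49.1% and 51.7% of the Rac2 TPM but 10.7% and 11.4% of its counts. Without transcripts under 500 bases, Rac2 stood at 975 and 988. The coding part of Rac2-203 is shown because all of it falls inside exons of Rac2-201, the full-length transcript: it spans mm10 chr15:78561908-78564972 on the minus strand (GENCODE M21, introns removed), and no base is in capitals because none lies outside those exons.
Rac2-203: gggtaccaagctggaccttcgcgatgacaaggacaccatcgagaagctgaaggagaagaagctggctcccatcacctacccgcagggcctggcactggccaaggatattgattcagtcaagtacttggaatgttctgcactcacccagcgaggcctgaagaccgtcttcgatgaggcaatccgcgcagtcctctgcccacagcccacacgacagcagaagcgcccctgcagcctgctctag
These 241 bases run to the stop codon, and only 9 of the 205 windows of Rac2-203 occur in no other Rac2 transcript. The data separate the 2 transcripts at few positions.

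Cdc42, which drives filopodia and cell polarity, had 446 and 469 TPM. Rhoq and Rhoj, its relatives, had at most 3.14 TPM. Cdc42 ends in either of 2 last coding exons, and the data separate them well: Cdc42-202 took 98.0% and 98.3% of TPM and Cdc42-201 took 1.96% and 1.73%. The ends are shown from the minus strand of mm10 chromosome 4, between 137321103 and 137328732 for Cdc42-202 and between 137322530 and 137328732 for Cdc42-201 (GENCODE M21, introns removed). Capitals mark the last coding exon, 90 bases in each, that the transcripts do not share.
Cdc42-202: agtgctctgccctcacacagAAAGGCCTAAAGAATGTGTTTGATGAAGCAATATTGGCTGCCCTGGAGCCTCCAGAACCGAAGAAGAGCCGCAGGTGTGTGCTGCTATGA
Cdc42-201: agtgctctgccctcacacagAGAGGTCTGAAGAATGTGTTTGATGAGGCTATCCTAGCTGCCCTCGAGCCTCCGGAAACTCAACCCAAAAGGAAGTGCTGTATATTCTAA
The form of Cdc42-202 is the one found in most tissues, and that of Cdc42-201 is known from brain. The former has 1517 windows of 50 bases that occur in no other Cdc42 transcript and the latter has 857, so this share rests on many positions.

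For Rac1 the transcript share rested on little. Rac1-202 took 94.0% and 96.7% of TPM and Rac1-201 took 0% in both libraries, yet Rac1-202 has only 105 windows of its own while Rac1-201 has 1891. Rac1-202 holds an extra exon, the one that defines the Rac1b form. It is shown in capitals between 20 flanking bases on each side, on the minus strand within mm10 chr5:143508139-143514688 (GENCODE M21, introns removed).
Rac1-202: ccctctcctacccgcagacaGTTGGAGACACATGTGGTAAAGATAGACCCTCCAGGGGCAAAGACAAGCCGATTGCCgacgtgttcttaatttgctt
The tables give no counts per exon, so whether these 57 bases were read was not tested. Rac1 also overlaps Daglb over 461 bases, and 18.1% of its windows are shared with that gene.

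Rhoa, which promotes contractile fibres, had 244 and 237 TPM, and Rhoc had 4.80 and 5.52. Rhoh, a GTPase of blood cells that does not hydrolyse GTP, had 259 and 255 TPM, just above Rhoa in both libraries. Without transcripts under 500 bases Rhoh stayed above, at 344 and 334 against 325 and 317. Per length the order turned: Rhoh had 187 and 179 and Rhoa 317 and 307. The divisor was 5093 bases for Rhoh, whose transcript with most counts has 2265, and 2197 for Rhoa. Arhgdib, which encodes a GDP dissociation inhibitor of blood cells and holds GTPases in the cytosol, had 1909 and 1946 TPM against 437 and 412 for Arhgdia.

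The exchange factors that load GTPases were lower. Dock2, which activates Rac in lymphocytes, had 216 and 184 TPM. Dock8, which activates Cdc42 and is mutated in a human immunodeficiency, had 95.5 and 84.8 TPM, and the related Dock10 had 92.2 and 86.6. The ranges of Dock8 and Dock10 overlapped in deposited TPM. Without transcripts under 500 bases Dock10 was higher, at 123 and 116 against 83.7 and 83.1. Per length it was also higher, at 66.7 and 60.4 against 42.5 and 38.4. Swap70, an actin-binding protein with roles in Rac signalling, had 37.8 and 41.5 TPM and its relative Def6 had 30.7 and 25.7. Leading transcripts in both Dock genes were not protein coding. In Dock2 it was Dock2-206, a retained intron transcript of 3819 bases with 45.4% and 46.0% of TPM and no window of its own, level with the coding Dock2-201 at 45.4% and 44.3%. In Dock8 it was Dock8-203, a retained intron transcript of 434 bases with 33.8% and 25.8% of TPM and 4.97% and 3.71% of counts. Per length Dock8 stood at 42.5 and 38.4, below the 90.1 ± 7.62 TPM (SD, n = 2) of the deposited mean.

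Genes that cap and sever filaments ranged from Gsn to Capg. The capping protein is made of an alpha and a beta chain. Capza1 and Capza2, the alpha chains, had 390 and 363 TPM and 240 and 239 TPM, and Capzb, the beta chain, had 396 and 356. The alpha chains summed to 616 ± 19.1 TPM, 1.64-fold the 376 ± 28.0 TPM of the beta chain (SD, n = 2), and 1.69-fold per length. The sum is uncertain because 77.4% of the windows of Capza1 are shared with other genes, 73.3% with Gm3608. Those genes held 1719 and 1889 estimated counts, beside 13455 and 13975 for Capza1. Capza3, the alpha chain of the testis, had 0 counts. Capg, a capping protein of the gelsolin family, had 380 and 407 TPM, and Gsn, gelsolin itself, had 19.6 and 20.3 TPM. Capg was thus the highest of the 8 gelsolin family genes, 7.28-fold above Flii.

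Of the genes that cross-link filaments, Lcp1, the plastin of blood cells also called L-plastin, had 1022 and 959 TPM. Pls1 and Pls3, the other plastins, reached at most 1.54 TPM. Flna, the filamin that joins filaments into networks and to membrane receptors, had 151 and 148 TPM. Flna-215, a processed transcript of 738 bases, held 31.2% and 44.0% of its TPM but 5.72% and 10.5% of its counts. Per length Flna had 88.9 and 67.2. Of the alpha-actinins, which bundle parallel filaments, Actn4 had 58.0 and 61.4 TPM and Actn1 had 39.2 and 35.6. The gene of the muscle form Actn2 had 12.1 and 7.53 TPM on 81 and 66 counts. Its transcript with most counts was Actn2-205, a processed transcript of 501 bases, so this is not a level of coding Actn2 transcripts. Actn3 had 0 counts.

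The proteins that tie filaments to the membrane were led by moesin. Msn had 631 and 573 TPM, Ezr, the gene of ezrin, had 81.9 and 81.8, and Rdx, the gene of radixin, had 36.1 and 35.7. Both ERM genes of the list were thus ordered in both libraries, with Msn 7.36-fold above Ezr. For non-muscle myosin II, the motor that pulls on filaments, Myh9 had 221 and 164 TPM, Myh10 had 4.00 and 1.09, and Myh14 had 0 counts. The Myh10 transcript with most counts was Myh10-205, a processed transcript of 558 bases. Myh9 stood 75.5-fold above Myh10 in deposited TPM and 539-fold per length. Myl6, the essential light chain of non-muscle myosin II, had 673 and 709 TPM, or 344 and 358 per length. The divisor there was 1668 bases, while the Myl6 transcript with most counts has 665. Of its windows, 53.2% were shared with pseudogenes. Vim, the gene of the intermediate filament vimentin and the one member that is not an actin regulator, had 262 and 249 TPM.

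In all 26 families the highest gene was one of the 41, with both libraries above both of the next gene, and the same 26 genes led without short transcripts and per length. The families were drawn up around the 41 genes, so this count is a description only. Over the 41 genes, 9 had a deposited TPM over 1.5-fold above the level per length: Actb, Cfl1, Arpc1b, Arpc4, Wasf2, Rac2, Dock8, Flna and Myl6. The median of this ratio was 0.910 for the 41 genes and 0.858 for all expressed genes. For Cfl1, Arpc1b, Arpc4, Flna and Myl6 the divisor per length is longer than the transcript with most counts. In the transcript table the leading transcript was protein coding for 37 of the 41 genes and the same in both libraries for 39. Actb, Dock2, Dock8 and Flna were the 4 exceptions to the first. By share of counts, the leading transcript was protein coding for all 41.

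**Figure D3:**
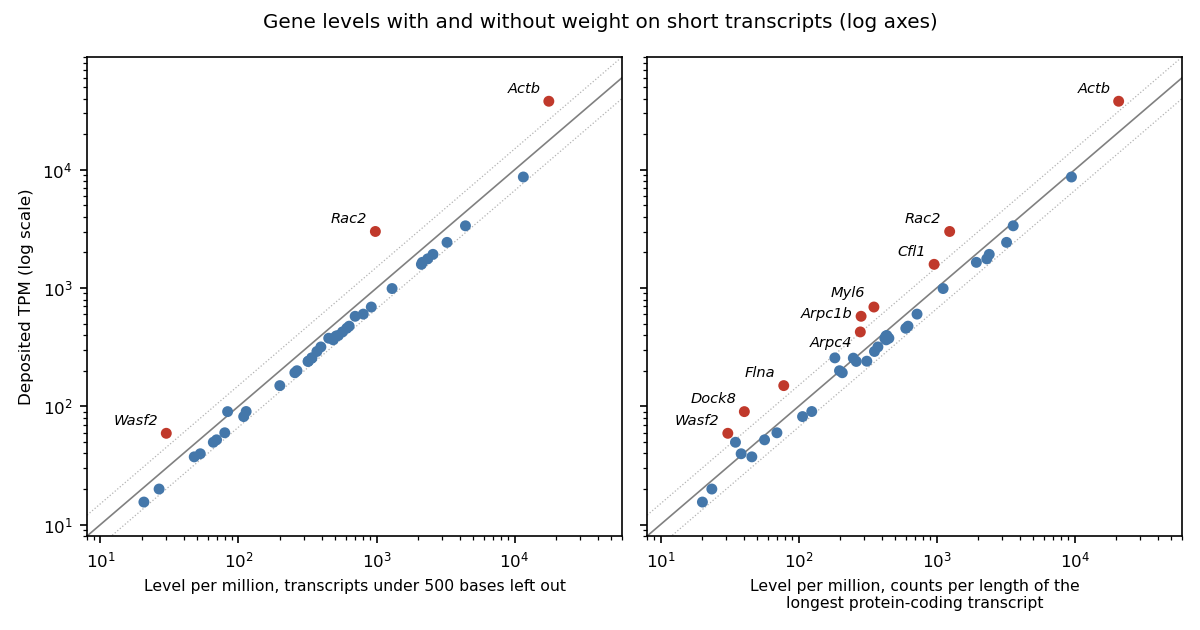
Deposited TPM of each gene (vertical, mean of both libraries) against 2 other scales (horizontal), TPM rescaled without transcripts under 500 bases (left) and counts per length of the longest protein-coding transcript (right), all on log axes. The solid line marks equality and the dotted lines 1.5-fold, with red points above it: 3 genes on the left and 9 on the right.

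Beyond the 41 genes, a list of 111 further genes of the same machinery was examined, of which 91 were expressed and 18 reached 100 TPM, and their median level was 18.6 TPM. The WAVE complex, which carries Rac signals to Arp2/3, had all 8 genes expressed, with Brk1 at 178 and 203 TPM and Abi1 at 180 and 155. The WASH complex, which drives branching on endosomes, had all 5 expressed, led by Washc3 at 83.8 and 91.9 and Washc2 at 40.2 and 32.6. Formins, which build straight filaments, had 8 of 13 expressed, with Fmnl1 at 49.7 and 51.7 and Diaph1 at 22.6 and 21.6. Of the Ena/VASP proteins, which protect growing ends from capping, Evl had 250 TPM in both libraries and Vasp 73.8 and 80.8.

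Hcls1, the cortactin relative of blood cells, had 134 and 138 TPM, and Whamm had 4.44 and 4.12. Among monomer and turnover factors, Gmfg, which debranches Arp2/3 networks in blood cells, had 329 and 338 TPM and Wdr1, a cofactor of cofilin, had 293 and 272. The kinases below these GTPases were led by Rock1 at 72.7 and 71.0 TPM and Pak2 at 65.1 and 57.3, with Pak3 at 0 counts. These are the main effectors through which Rhoa and Rac reach myosin and cofilin. Arhgef1, an exchange factor for Rhoa, had 160 and 136 TPM, and Elmo1, the partner of Dock2, had 79.8 and 74.4.

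The GTPase-activating proteins that switch these GTPases off were led by Arhgap15 at 269 and 271 TPM and Arhgap45 at 199 and 173. Tpm3, a tropomyosin that coats filaments, had 648 and 645 TPM and Tpm4 had 187 and 178, while Tpm2 had 0 counts. Fermt3, the kindlin of blood cells that activates integrins, had 189 and 202 TPM, and talin, Tln1, had 68.3 and 62.1. Myl12a, a regulatory light chain of non-muscle myosin, had 433 and 447 TPM and Myo1g 98.4 and 98.2, while Myl9 had 0 counts. Mrtfa and Mrtfb, actin-sensing cofactors of the factor SRF, had 38.9 and 30.5 TPM and 14.8 and 11.7.

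An exact binomial test on the counts of each gene set library 2 against library 1, and so compared libraries and not conditions. At an adjusted p under 0.05, 21 of the 41 genes differed, beside 25.1% of the 17458 genes tested and 34.2% of those whose counts summed to 500 or more. Of the 21, 11 were higher in library 2 and 10 in library 1, where the shares over all tested genes were 11.9% and 13.2%. None of the 21 reached 1.5-fold, while 8.8% of all tested genes, from a summed count of 10 up, both passed the test and reached 1.5-fold. None of these shares is matched to the counts of the 41 genes, so no trait of the 41 can be read from them. The median log2 ratio of library 2 over library 1 was 0.02 over the 41 genes and 0.00 over all genes tested. The largest was that of Flna, at 7051 and 5603 estimated counts, with -0.36 (exact binomial test, adjusted p = 7.27e-42). Wasf2 followed at -0.28 (adjusted p = 6.94e-07), Myh9 at -0.27 (9.83e-56) and Dock2 at -0.21 (1.17e-27). Was, at 369 and 435 counts, had 0.21 and did not pass (adjusted p = 0.131). Libraries of the same sample varied beyond counting error, so these exact binomial p-values are too small.

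These ratios moved with transcript length. The 6 genes whose longest protein-coding transcript has 5000 bases or more, Flna, Wasf2, Myh9, Dock2, Dock8 and Rhoh, all lay below 0, with a median log2 ratio of -0.24, beside -0.07 over 1620 such genes with counts summing to 500 or more. Of these 6, Rhoh had -0.02 and did not pass the test, and its transcript with most counts has 2265 bases. Of the 14 genes under 2000 bases, 10 lay above 0 and 4 below, with a median of 0.08, beside 0.06 over 1792 such genes. Both counts of signs include genes that did not pass. Across the 41 genes the Spearman correlation between length and log2 ratio was -0.53, and across 7235 abundant protein-coding genes it was -0.29, given as descriptions over genes that share the same libraries. Actb, at 395491 and 357843 counts, had a log2 ratio of -0.17, below 0 although it is a short gene. In the smaller gene table described next, the ratio of Actb was 0.0082 (exact binomial test, adjusted p = 0.969). That table kept only 0.501% and 0.553% of the Actb counts, so its ratio is no check on the first. Of the pathway list, 38 of 101 genes tested passed, 10 higher in library 2 and 28 in library 1, with a median log2 ratio of -0.09. Its 38 genes of 5000 bases or more had a median of -0.15 and its other 63 a median of -0.06. The part of length in these ratios was not tested.

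**Figure D4:**
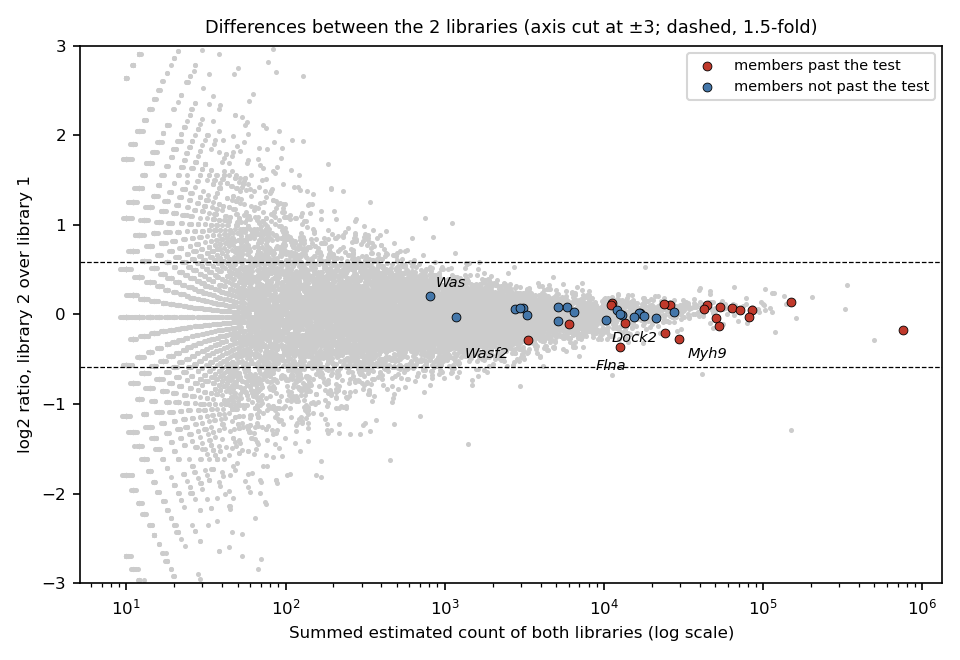
Log2 ratio of library 2 over library 1 for each tested gene (grey) and the 41 genes (red where past the test, blue where not) against the summed estimated count on a log axis. All 41 lie inside the dashed lines of 1.5-fold, from Flna at -0.36 to Was at 0.21.

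The smaller of the deposited gene tables, on the GENCODE M4 annotation, held far fewer counts for these genes. It gave Actb 1981 and 1980 counts where the larger table gave 395491 and 357843, and Actg1 56 and 69 where the larger gave 41411 and 43636. The share of the estimated counts found in the smaller table ran, in library 1, from 0.135% for Actg1 to 78.2% for Gsn, with a median of 12.4% over the 41 genes. Coro1a had 3002 and 3006 counts in it, Arpc2 1803 in both libraries and Arhgdib 1368 in both, where the larger table differed between libraries by 0.08 on the log2 scale for Coro1a and Arhgdib.

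Protein-coding genes as a whole showed the same shape. In library 1 the median share was 43.4% for 5469 genes with 0.1 to 1 estimated count per base of their longest coding transcript, 26.5% for 943 genes with 1 to 10, and 1.54% for 97 genes above 10. Counts per base in the smaller table reached at most 1.96 in the last group, and Coro1a reached 1.72 in library 2. The smaller table gave Actg1 fewer counts than Gsn, which had 464 in both libraries, and it placed Capza2 above Capza1. Why the tables differ was not tested.

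**Figure D5:**
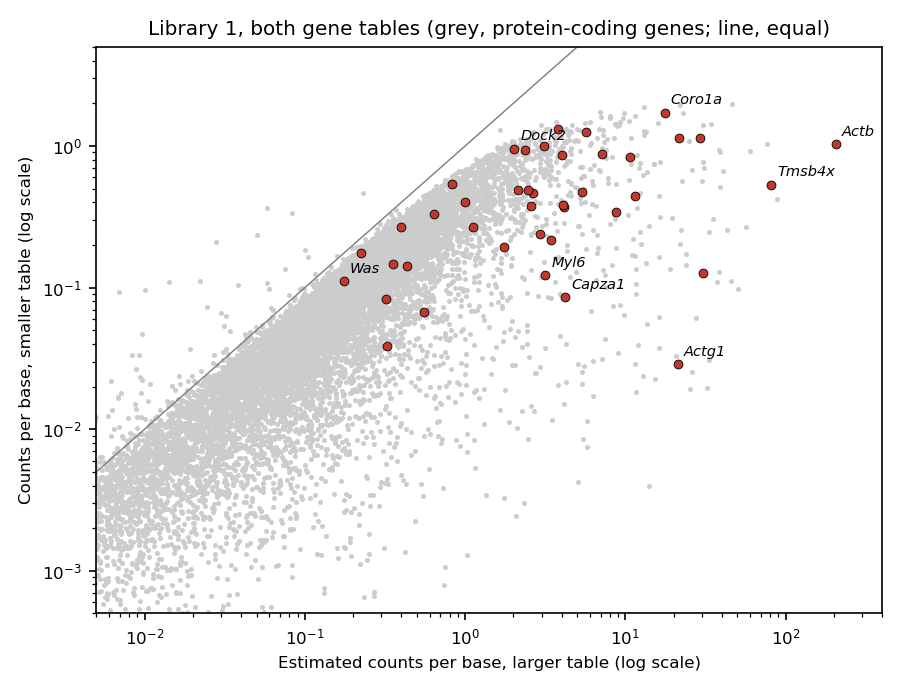
Counts per base of the longest protein-coding transcript in the smaller table against estimated counts per base in the larger table, library 1, log axes, with protein-coding genes in grey and the 41 genes in red. The red points leave the line of equality as the horizontal value rises, with Actb at 1981 counts against 395491 and Actg1 at 56 against 41411.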

How the data were processed

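Each library has a larger and a smaller gene table and a table of transcripts, all on mm10. The larger and the transcript table, on GENCODE M21, hold unscaled expected counts (estimated counts) and TPM as the authors deposited them. Per the file headers, transcripts also carry a percent, their part of the TPM of the gene. In the smaller table the authors deposited integer counts on GENCODE M4. Aligner, tool versions and strand setting remain not given in the sources used here, so reads of overlapping genes on opposite strands cannot be told apart.

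From these files, levels were averaged over both libraries. Level per length divides counts by the longest protein-coding transcript and scales to the total of TPM. Shared windows are 50-base stretches of a main transcript (the one with most counts) that occur in transcripts of other genes on either strand. Expected counts were rounded for the two-sided exact binomial test, with TMM sizes (edgeR 4.0.16), a summed count of 10 or more, a prior count of 0.5 for log2 ratios and Benjamini-Hochberg adjustment. A quasi-likelihood fit needs residual degrees of freedom, which 1 library a side does not leave. Alternatives used DESeq2 1.42.0 size factors, total counts, no minimum, posterior mean TPM, other scales and each library alone.

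Members and lists were chosen with earlier results of these data known. Text names all 41 members, their relatives where levels bear on them, the 2 highest genes of each pathway subgroup and those at 0 counts. Of 114 pathway symbols, 111 matched a gene of their own (2 old names and 1 symbol held by 2 genes did not). A relative of the listed genes is not reported here.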

Additional observations from a re-analysis of the deposited data

How the results depend on the processing

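No paired analysis was possible because both libraries belong to the same group. The number of expressed genes stayed at 41 under a threshold of 5 TPM, posterior mean TPM and each library alone. The number at 100 TPM or more was 30 to 32 under the alternatives run. The median level, 365 TPM, became 326 with posterior mean TPM, 451 without transcripts under 500 bases and 351 per length, and was 356 to 374 with each library alone. Rescaling after short transcripts are left out raises most genes, so the 451 is not a rise of these genes in particular. The same gene led all 26 families under the other scales and each library, and 24 families in the smaller gene table, where Def6 and Capza2 led. Leading transcripts that are protein coding numbered 36 to 38 with each library alone. The 21 genes past the test between libraries stayed 21 with DESeq2 size factors and with total counts, and were 20 with no minimum count, 5 in the smaller tables and 0 with 1.5-fold also required. Those 5 were Flna, Myh9, Dock2, Dock8 and Wasf2, each lower in library 2. The share of all genes past the test in the smaller tables is not given here, so the 5 has no background beside it. Among the 21 genes past the test in the larger tables, the log2 ratio changed sign in the smaller tables for 7. These were Actb (0.0082), Pfn1 (8.5e-05), Actr2 (-0.109), Rac2 (-0.0050), Capzb (0.0011), Lcp1 (0.0040) and Myl6 (-0.034). None of the 7 passed there (exact binomial test, lowest adjusted p = 0.406, for Actr2). Equal counts in both libraries gave 0.0090 there, as for Arpc2, so most of the 7 lay near no difference. In library 1 the smaller table kept from 0.501% (Actb) to 21.4% (Capzb) of the estimated counts of these 7. Their ratios there are therefore no check on those of the larger table. The cause of the sign changes was not tested. With 1 animal, no value here covers variation between mice.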
